A study of Mus musculus with 64 samples.

Results

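T cells and natural killer (NK) cells of the mouse colon were followed through 36 marker genes in bulk RNA sequencing of whole colon. The genes were taken by name from each of 2 tables of 35534 genes, and all 36 were found in both; the list was drawn up with earlier results of these data known. They fall into 7 roles: the T cell receptor complex (7 genes), coreceptors (3), receptor signalling and T cell surface proteins (9), helper and regulatory T cell genes (6), cytotoxic effector genes (5), NK genes (4) and tissue residency genes (2). A filter on low counts, at least 10 in at least 4 libraries, passed 35 of them in mice kept specific pathogen free (SPF) and 32 in germ-free (GF) mice. Ifng, which encodes the cytokine interferon gamma, failed it in both, and Ctla4, Gzma and Gzmb failed it in GF mice, so counts below are over 35 and 32 genes and not over all 36.

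The mice were of the Swiss Webster stock, wild type and 8 to 12 weeks old, kept on 12 h of light and 12 h of dark. SPF mice carry a gut microbiota and GF mice are raised in isolators without microbes; here the GF mice spent the treatment in ISOcages outside their isolators. Mice assigned at random to vancomycin, an antibiotic against Gram-positive bacteria, were injected into the peritoneum with 2.5 mg in 100 µl of PBS, 2 times per day on 3 days and a last time on day 4, and control mice received the PBS alone. The time of collection was 5, 11, 17 or 23 h after lights on (zeitgeber time, ZT), which gives 16 groups of 4 libraries: SPF or GF, PBS or vancomycin, at each time. Whether each library came from its own mouse is not stated in the labels. All p-values therefore refer to variation among these libraries, which may be technical in part. The labels give no sex, cage or litter. Comparing SPF with GF mice addresses whether the antibiotic acts on gut immune genes when no microbes are there.

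A T cell recognises antigen through its receptor, a pair of variable chains held at the membrane by the CD3 chains and CD247. Binding lets the coreceptor CD4 or CD8 bring the kinase LCK to the complex, ZAP70 is recruited to it, and the adaptor LAT passes the signal on. Helper T cells carry CD4, regulatory T cells depend on FOXP3, cytotoxic T cells carry CD8 and share granzymes and perforin with NK cells, and NK cells carry receptors such as NKp46 (Ncr1) in place of a T cell receptor. In the colon these cells sit in the epithelium, in the lamina propria and, together with many B cells, in lymphoid follicles.

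Libraries held 10044032 to 13615804 estimated counts in SPF mice (median 12106634) and 10513966 to 15736087 in GF mice (median 13203771). Levels are given as CPM, a gene's count in proportion to its library's TMM-scaled total, and are compared between libraries, never between genes. SPF and GF mice were deposited in separate tables, so levels of both are set side by side without a test. In bulk tissue, fewer T cells and less RNA per T cell cannot be told apart. Some libraries stood apart: SPF vancomycin ZT11 replicate 2 had the highest level of 29 of the 35 tested members, and GF PBS ZT23 replicate 3 the highest of 26 of the 32. GF libraries also varied widely in genes that mark position along the colon and in Y-linked genes. The colon position score (mean log2 CPM of distal minus proximal Hox genes) spanned 0.98 to 3.93 for SPF and -4.89 to 3.83 for GF mice. The Y-linked score (mean log2 CPM of 4 genes) spanned 5.66 to 6.08 for SPF and 0.14 to 6.18 for GF mice, with medians of 5.78 after PBS and 1.40 after vancomycin in GF mice.

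CD3 delta, gamma and epsilon, invariant chains of the receptor complex, are encoded close to each other, and because the call described below fell on Cd3d, the 250 bases upstream of each start are shown to let the neighbours be compared. They are RefSeq windows of build GRCm38.p6, at chr9:44981536-44981785 (plus strand, Cd3d), chr9:44980432-44980681 (minus strand, Cd3g) and chr9:45009612-45009861 (minus strand, Cd3e), and this build differs from the GRCm39 of the quantification. Capitals mark matches on either strand to 5 motifs. They are the E-box (CANNTG), the motif of RUNX factors (TGTGGT), that of TCF/LEF factors (CTTTGA), that of ETS factors (AGGAAG) and that of the T helper regulator GATA3 and its relatives (AGATAA).
Cd3d: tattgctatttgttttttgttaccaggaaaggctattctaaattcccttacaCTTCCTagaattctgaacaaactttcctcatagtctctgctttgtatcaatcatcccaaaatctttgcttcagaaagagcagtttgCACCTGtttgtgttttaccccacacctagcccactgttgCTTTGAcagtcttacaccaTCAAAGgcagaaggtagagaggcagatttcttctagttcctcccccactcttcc
Cd3g: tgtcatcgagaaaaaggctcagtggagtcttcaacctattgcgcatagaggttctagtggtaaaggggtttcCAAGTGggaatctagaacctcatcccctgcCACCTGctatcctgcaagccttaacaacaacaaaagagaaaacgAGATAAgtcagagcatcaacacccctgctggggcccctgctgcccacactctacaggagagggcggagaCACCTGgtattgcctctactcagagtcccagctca
Cd3e: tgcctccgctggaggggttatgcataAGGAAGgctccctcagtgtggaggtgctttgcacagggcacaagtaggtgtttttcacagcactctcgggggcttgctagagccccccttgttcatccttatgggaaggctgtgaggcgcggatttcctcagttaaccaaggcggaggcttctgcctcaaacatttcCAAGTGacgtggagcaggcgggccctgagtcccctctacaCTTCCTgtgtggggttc
Cd3d held 1 E-box, 2 TCF/LEF and 1 ETS match, Cd3g held 3 E-box and 1 GATA match, and Cd3e held 1 E-box and 2 ETS matches, with no overlap between motifs. A window was found for 23 of the 36 members (29 windows). An ETS match lay in 51.7% of the member windows and in 29.5% of all 32851 windows of this length, a RUNX match in 31% against 14%, an E-box in 86.2% against 66.2%, a TCF/LEF match in 10.3% against 13.8% and a GATA match in 6.9% against 9.99%. A match is a string of letters and not a measured binding site.

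In SPF mice, Cd3d rose after vancomycin over the 4 times of day, and the other members had higher mean log2 levels as well without passing the test. Cd3d was the 1 called member of 35 tested (edgeR quasi-likelihood test, Benjamini-Hochberg adjusted p under 0.05). Of the 16938 genes tested 0.809% were called, 0.378% of all genes higher and 0.431% lower. All 35 log2 fold changes were above 0, as were 48.8% of all genes tested, and the members' median was 0.80 against 0.00 for all genes. At an unadjusted p under 0.05 stood 20 of the 35, against 16.2% of all genes. Without vancomycin ZT11 replicate 2 this was 4 of the 35, with 34 above 0 and a median of 0.49. Fits without a library or with a covariate, here and below, lack 2 shares of all genes. Those at an unadjusted p under 0.05 and those above 0 were not computed. A change in the members thus cannot be told there from a change over all genes. The receptor complex had the highest role median, 1.12, with 7 of 7 at an unadjusted p under 0.05, followed by signalling and surface genes (1.00, 6 of 9), coreceptors (0.79, 2 of 3), cytotoxic genes (0.77, 3 of 5), NK genes (0.63, 2 of 4), helper and regulatory genes (0.51, 0 of 5) and residency genes (0.15, 0 of 2). These differences between roles were not tested. Without vancomycin ZT11 replicate 2, the coreceptors Cd4, Cd8a and Cd8b1 had 0.01, 0.40 and 0.50, beside 0.35 to 0.67 for the NK genes.

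Cd3d, the delta chain, lay between 0.506 and 18.6 CPM after PBS (median 4.00, 16 libraries) and between 0.667 and 45.6 CPM after vancomycin (median 13.7). The groups overlapped, and the lowest vancomycin libraries were replicate 1 at ZT11 (0.667 CPM) and replicate 4 at ZT17 (0.694 CPM). Its log2 fold change was 1.92 ± 0.46 (SE; edgeR adjusted p = 0.0428; 4.45 ± 4.5 to 14 ± 11.3 CPM, SD, n = 16 each). DESeq2 called Cd3d too (1.93, adjusted p = 0.00209; 2.84% of all genes), as did edgeR with RLE scaling (adjusted p = 0.0429) and with a filter of 10 counts in 16 libraries (adjusted p = 0.0408). The edgeR call depended on single libraries. It held in 10 of the 32 fits that leave out a library, those without vancomycin ZT5 replicate 1 or 3, vancomycin ZT11 replicate 1 or 3, vancomycin ZT17 replicate 3 or 4, vancomycin ZT23 replicate 3, PBS ZT5 replicate 1, PBS ZT11 replicate 2 or PBS ZT23 replicate 4, and was lost without each of the other 22. Over the 32 fits the value of Cd3d stayed between 1.57 (without vancomycin ZT11 replicate 2, adjusted p = 0.0944) and 2.16, with adjusted p from 0.0131 to 0.0944. With no filter on low counts the adjusted p was 0.0524, and with a B cell, colon position or smooth muscle score as a covariate the call was also lost (log2 1.10, 1.83 and 1.67; adjusted p = 0.0744, 0.0921 and 0.0534).

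**Figure D1:**
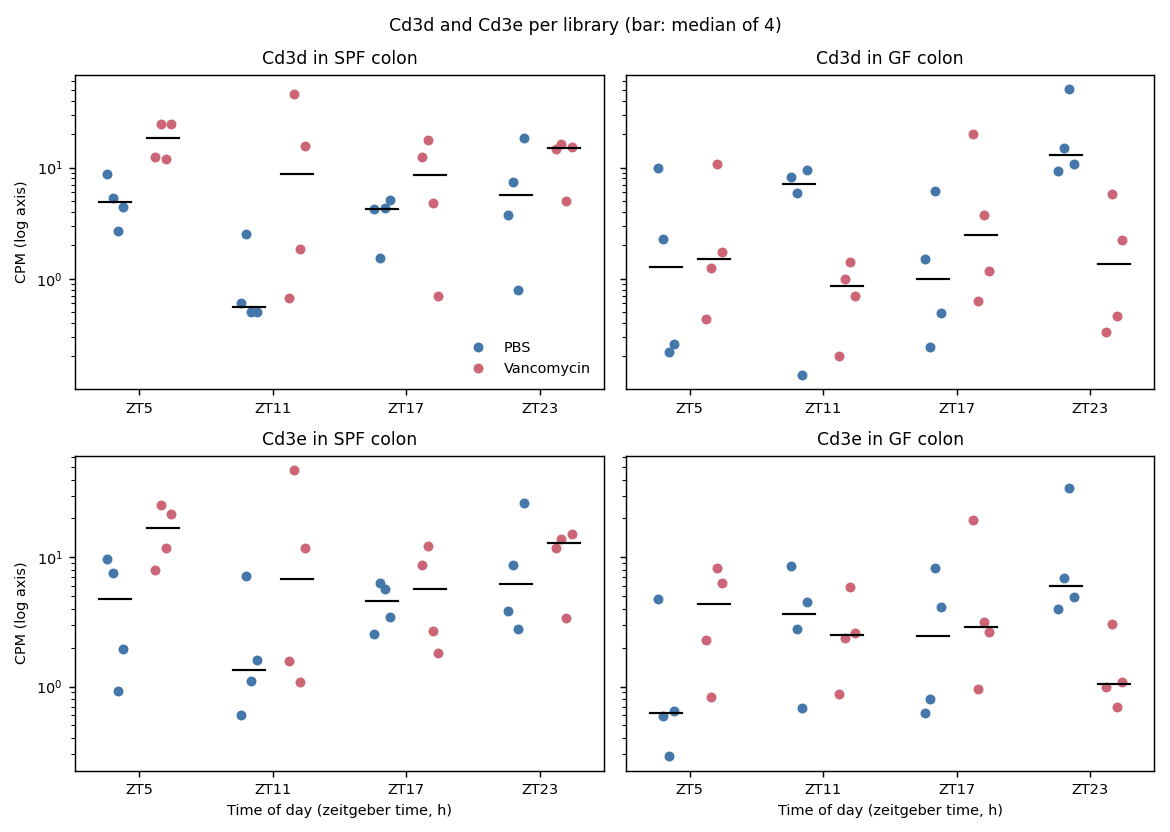
Levels of Cd3d and Cd3e in every library (points, CPM on a log axis) by time of day and treatment, in separate panels for SPF and GF mice, with a bar at the median of each group of 4. Cd3d after vancomycin lies above PBS without overlap at SPF ZT5, and below PBS without overlap at GF ZT23, where 1 PBS library reaches 51.1 CPM.

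The rest of the complex leaned the same way with smaller values. Cd3e, the epsilon chain, lay between 0.602 and 26.2 CPM after PBS (median 3.65) and between 1.09 and 47.4 CPM after vancomycin (median 11.9), a log2 fold change of 1.22 ± 0.47 (edgeR adjusted p = 0.204). Trac, the constant region of the alpha chain, had medians of 4.58 and 12.3 CPM (0.43 to 31.9 and 1.01 to 59.6; 1.12 ± 0.53, adjusted p = 0.295). Cd247, the zeta chain, had the smallest value of the complex, 0.78 ± 0.38 (adjusted p = 0.305; medians 3.54 and 6.83 CPM, ranges 1.18 to 17 and 1.43 to 29). Treatments overlapped for all 7 genes. Trbc1, of the 2 beta chain constant regions, had 1.15 ± 0.39 (adjusted p = 0.148), and was called in 1 of the 32 fits, without PBS ZT11 replicate 2 (adjusted p = 0.0361; 1.45% of all genes were called in that fit). The near-identical Trbc1 and Trbc2 may share reads, so their separate values are uncertain.

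Coreceptor and signalling genes spread as widely. Cd4, the helper coreceptor that macrophages can also carry, lay between 2.02 and 118 CPM after PBS (median 10.7) and between 1.09 and 156 CPM after vancomycin (median 15), with a log2 fold change of 0.79 ± 0.62 (edgeR adjusted p = 0.567). Without vancomycin ZT11 replicate 2 it was 0.01. Cd8a, the cytotoxic coreceptor, had medians of 2.46 and 5.33 CPM (0.774 to 15.5 and 1.01 to 20.4; 0.84 ± 0.39, adjusted p = 0.294), and Cd8b1, its partner chain, had 0.73 ± 0.34. Lck, the kinase that starts receptor signalling, had medians of 9.32 and 27 CPM (1.70 to 70.9 and 3.94 to 102; 1.15 ± 0.44, adjusted p = 0.204). Il7r, the interleukin 7 receptor that naive and memory T cells need to survive, had 3.47 and 7.58 CPM (1.43 to 15.8 and 1.09 to 45.1), the highest value of its role with 1.16 ± 0.43 (adjusted p = 0.197). Without vancomycin ZT11 replicate 2 Il7r had 0.49, below Lck at 0.77. The lowest of that role was Thy1 with 0.19 ± 0.16 (adjusted p = 0.609; 12.4 to 36.9 CPM after PBS and 13.3 to 39.1 after vancomycin), a surface protein that stromal cells and neurons make as well.

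The 5 tested helper and regulatory genes had a median of 0.51. Foxp3, the regulator of regulatory T cells, lay between 0.086 and 4.09 CPM after PBS (median 0.615) and between 0.334 and 3.19 CPM after vancomycin (median 1.21), a log2 fold change of 0.51 ± 0.37 (edgeR adjusted p = 0.528). Gata3, the regulator of type 2 helper cells, had the highest value of the role, 0.79 ± 0.67 (adjusted p = 0.598). That value rested on a few libraries: Gata3 stood at 0.880, 1.13, 0.877 and 57.5 CPM in the PBS libraries at ZT23 and at 1.00, 4.46, 0.839 and 26.6 CPM in the vancomycin libraries at ZT11, and without PBS ZT23 replicate 4 its log2 fold change was 1.78. Ctla4, an inhibitory receptor, was the lowest of the role with 0.37 ± 0.42, and Tbx21, the regulator of type 1 helper and NK cells, had 0.43 ± 0.31. Ifng was listed at 0 in 19 of the 32 SPF and 21 of the 32 GF libraries, with highest levels of 0.272 and 0.395 CPM, too few counts to compare.

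Among cytotoxic genes, perforin (Prf1) had the highest log2 fold change, 1.07 ± 0.50 (edgeR adjusted p = 0.29), and granzyme B (Gzmb) the lowest, 0.19 ± 0.38 (adjusted p = 0.856). Gzmb lay between 0.0794 and 2.26 CPM after PBS (median 0.351) and between 0.173 and 1.40 CPM after vancomycin (median 0.462). Gzma, granzyme A, lay between 0 and 2.57 CPM after PBS (median 0.264) and between 0.0836 and 2.93 CPM after vancomycin (median 0.368; 0.35 ± 0.51, adjusted p = 0.792), and without vancomycin ZT17 replicate 2 its value was -0.28. Nkg7, a granule membrane protein, had medians of 0.831 and 1.21 CPM (0.231 to 2.81 and 0.502 to 4.02; 0.77 ± 0.29, adjusted p = 0.194). Ccl5, a chemokine of activated T and NK cells, had 1.45 and 3.39 CPM (0.338 to 11.1 and 0.434 to 16.1; 0.96 ± 0.40, adjusted p = 0.236). For all 4 genes the treatments overlapped.

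Ncr1, the NK receptor NKp46, had the highest value of the NK genes. It lay between 0.0877 and 1.19 CPM after PBS (median 0.382) and between 0.281 and 1.57 CPM after vancomycin (median 0.762), with a log2 fold change of 0.80 ± 0.28 (edgeR adjusted p = 0.167). Klrd1, the NK receptor chain CD94, was lowest with 0.58 ± 0.32. Itgae, the integrin CD103 that holds T cells in the epithelium, lay between 1.76 and 9.23 CPM after PBS (median 3.5) and between 2.42 and 7.17 CPM after vancomycin (median 4.25; 0.18 ± 0.20, adjusted p = 0.713). The residency receptor Cxcr6 had 0.12 ± 0.25. Among NK genes Ncr1 reached at most 1.57 CPM in SPF and 1.11 CPM in GF libraries, and Il2rb, which T cells share, 11.6 and 8.2 CPM.

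**Figure D2:**
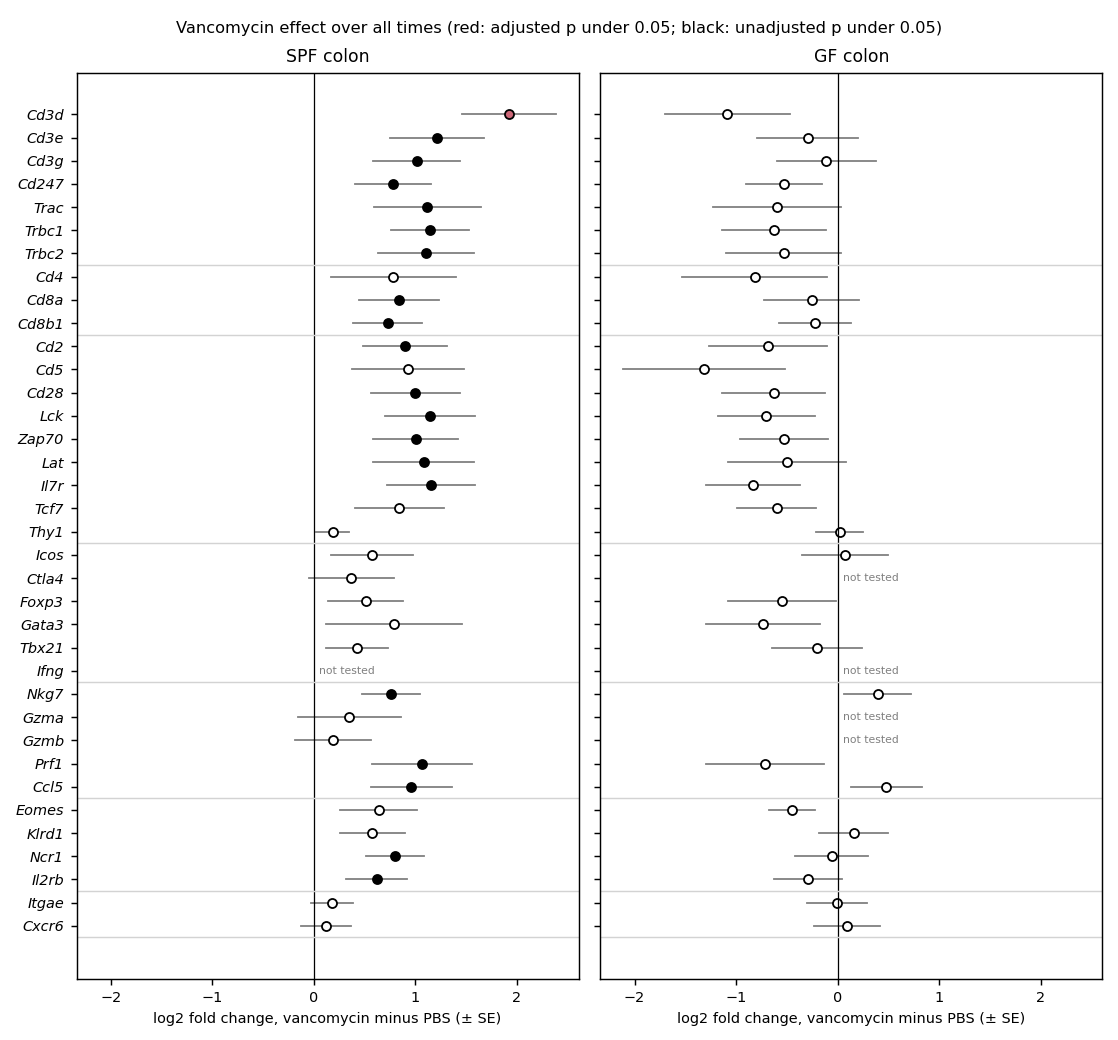
Log2 fold change, vancomycin minus PBS over all times (x axis), with its SE for each member (rows, grouped by role), in SPF mice on the left and GF mice on the right. Red marks the member with an adjusted p under 0.05 (Cd3d in SPF mice) and black an unadjusted p under 0.05; all 35 SPF values lie above 0, and 6 of the 32 GF values do.

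Split by time of day, the SPF medians were highest at ZT5 and ZT11. At ZT5, 34 of 35 members were above 0 (50.6% of all genes), with a median log2 difference of 1.40. None was called in edgeR (0.0827% of all genes, with 0.0177% of all genes called higher) or in DESeq2. In edgeR 6 members and 14.2% of all genes had an unadjusted p under 0.05. Vancomycin libraries stood above PBS without overlap for 4 members, Cd3d, Trbc1, Tbx21 and Itgae, as for 4.12% of all genes. Cd3d read 8.69, 5.38, 2.70 and 4.41 CPM in the PBS libraries and 12.5, 24.9, 11.9 and 24.5 CPM in the vancomycin libraries (log2 1.80 ± 0.90, edgeR adjusted p = 0.363). Without PBS ZT5 replicate 2 the 6 members at an unadjusted p under 0.05 became 1, and without PBS ZT5 replicate 1 they became 15. Calls over all genes moved as well, from 1 to 88 at ZT5 over the 32 fits that leave out a library. Itgae read 3.10, 1.87, 2.54 and 2.99 CPM against 5.31, 4.35, 5.60 and 6 CPM (1.01 ± 0.41, adjusted p = 0.271). Each vancomycin library of Itgae was above each PBS library, with little spread in either group. Il7r read 3.70, 1.72, 1.77 and 3.44 CPM against 3.62, 12.2, 11.8 and 28.4 CPM (2.39 ± 0.90, adjusted p = 0.235, the smallest of the members), and Foxp3 read 0.774, 0.390, 0.308 and 0.523 CPM against 0.403, 1.84, 1.70 and 3.19 CPM (1.82 ± 0.77, adjusted p = 0.292). For both, vancomycin replicate 1 fell within the PBS range and the other vancomycin libraries lay above it.

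Genes of other cell types differed in the same libraries at SPF ZT5. All 13 tested B cell and follicle genes were above 0 (50.6% of all genes; median 1.29), with a summed level of 55.4 to 598 CPM after PBS and 410 to 819 CPM after vancomycin. All 14 macrophage and dendritic cell genes were above 0 (median 0.48), and all 7 smooth muscle genes below 0 (median -0.58, summed 11100 to 13500 CPM after PBS and 7520 to 8380 CPM after vancomycin). With the B cell score as a covariate, a fit added after the data were seen, the T and NK cell median was 0.23 with 26 of 35 above 0, and with the smooth muscle score it was 0.32 with 29 of 35. The smooth muscle score did not overlap between the treatments at this time (10.18 to 10.50 after PBS and 9.65 to 9.83 after vancomycin). The fit with that score therefore cannot separate it from treatment. The part of these cell types in the result was not tested.

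At SPF ZT11, 33 of 35 members were above 0 (49.7% of all genes), with a median of 1.64. No gene of the table was called in edgeR (0% of 16938; 11 members and 9.86% of all genes had an unadjusted p under 0.05), and DESeq2 called Cd3d (0.555% of all genes). Cd3d read 0.602, 2.54, 0.506 and 0.507 CPM after PBS and 0.667, 45.6, 1.84 and 15.6 CPM after vancomycin (log2 3.91 ± 1.03, edgeR adjusted p = 0.162). Nkg7 read 0.258, 0.873, 0.337 and 0.253 CPM after PBS and 1.25, 4.02, 0.671 and 2.50 CPM after vancomycin (2.25 ± 0.60, adjusted p = 0.166). Vancomycin replicates 2 and 4 were high for both genes, and PBS replicate 2 was high among its group. Lck showed the same libraries, with 2.84, 21, 3.04 and 3.63 CPM after PBS and 6.42, 102, 3.94 and 26.2 CPM after vancomycin (2.18 ± 0.91, adjusted p = 0.428). No member was free of overlap (1.42% of all genes were, with vancomycin higher). Without vancomycin ZT11 replicate 2 the median was 0.27 with 21 of 35 above 0, and without PBS ZT11 replicate 2 it was 2.61. Without vancomycin ZT11 replicate 3 edgeR called Cd3d and Nkg7 (0.644% of all genes). The summed B cell level ran from 49.4 to 775 CPM after PBS (median 64) and from 27.5 to 803 CPM after vancomycin (median 435).

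At SPF ZT17 and ZT23 the members lay near the PBS level. At ZT17, 27 of 35 were above 0 (49.9% of all genes) with a median of 0.33, and at ZT23, 19 of 35 (48.2%) with a median of 0.02. No member was called at either time in edgeR or DESeq2. In edgeR 0.319% of all genes were called at ZT17, with 0.13% of all genes called higher, and 0% at ZT23. No member had an unadjusted p under 0.05 in edgeR (8.65% and 7.34% of all genes). Without vancomycin ZT17 replicate 2 the ZT17 median was -0.07 with 13 of 35 above 0, and without vancomycin ZT17 replicate 4 it was 0.67. At ZT17 Cd3d read 4.21, 1.54, 4.31 and 5.15 CPM after PBS and 12.4, 17.8, 4.77 and 0.694 CPM after vancomycin. At ZT23 it read 3.78, 7.45, 0.789 and 18.6 CPM after PBS and 14.8, 16.4, 4.99 and 15.4 CPM after vancomycin. The PBS libraries at ZT23 included replicate 4, the highest SPF library for Itgae, Gata3, Foxp3 and Cxcr6, and without it the ZT23 median was 0.90 with 34 of 35 above 0. Whether the vancomycin difference depends on time was tested directly: no member passed (0.36% of all genes did), 1 had an unadjusted p under 0.05 (Nkg7, edgeR adjusted p = 0.394; 9.79% of all genes), and DESeq2 called none. Without PBS ZT11 replicate 2 the count of 1 was 7.

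**Figure D3:**
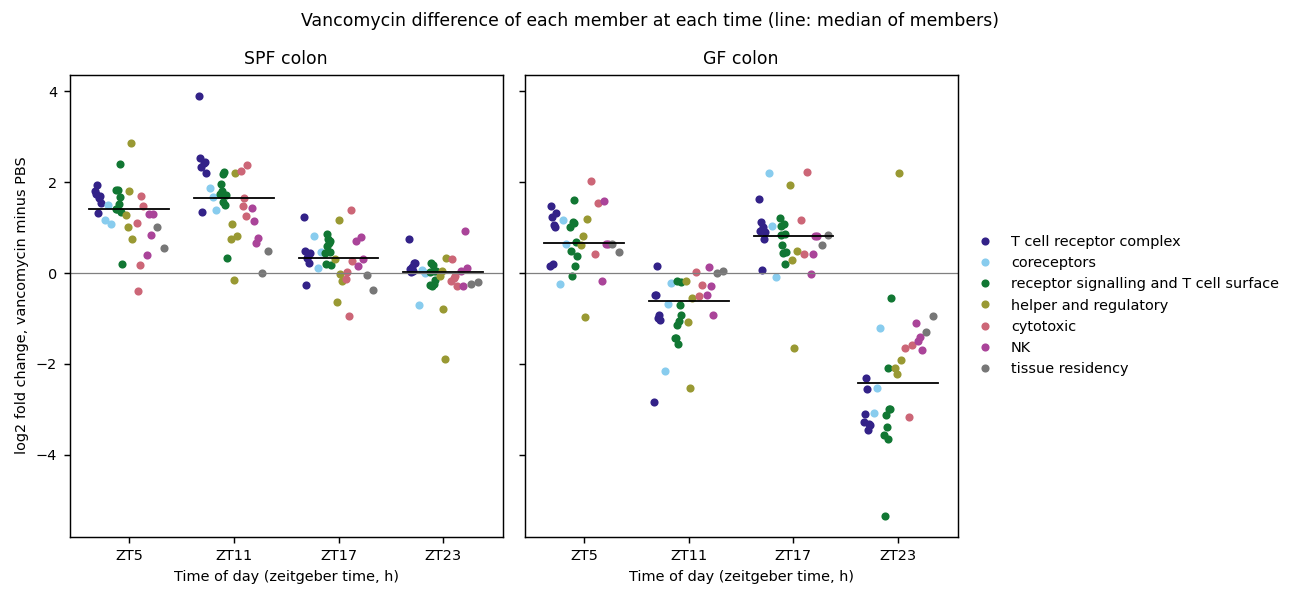
Log2 difference, vancomycin minus PBS (y axis), at each zeitgeber time in h (x axis) for every tested member, coloured by role, in SPF and GF mice, with a line through the members' medians. The SPF medians are 1.40, 1.64, 0.33 and 0.02, and the GF medians 0.66, -0.62, 0.83 and -2.42.

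In GF mice no member, and no gene of the table, was called over all times in edgeR (0% of 16951; 3.96% of all genes and no member had an unadjusted p under 0.05), and DESeq2 called no member. Of 32 members, 6 were above 0 (52.2% of all genes), with a median of -0.51 and a range from -1.32 (Cd5, a brake on receptor signalling) to 0.48 (Ccl5). Cd5 was at 0 in 6 PBS and 3 vancomycin libraries, and its value was 0.23 without PBS ZT5 replicate 1 and -2.25 without vancomycin ZT17 replicate 1. Cd3d lay between 0.136 and 51.1 CPM after PBS (median 6.02) and between 0.202 and 20 CPM after vancomycin (median 1.21), a log2 fold change of -1.09 ± 0.62. Cd3e had medians of 4.05 and 2.50 CPM (-0.29 ± 0.50), and Trac 2.56 and 1.27 CPM (-0.60 ± 0.63). Libraries of both treatments spanned wide and overlapping ranges. The GF median was -0.69 without vancomycin ZT17 replicate 1 (11 of the 31 that passed the filter at an unadjusted p under 0.05), -0.21 without PBS ZT23 replicate 3 and -0.06 without PBS ZT17 replicate 3. Role medians were -0.53 for the receptor complex, -0.26 for coreceptors, -0.63 for signalling and surface genes, -0.37 for 4 helper and regulatory genes, 0.39 for 3 cytotoxic genes, -0.17 for NK genes and 0.04 for residency genes.

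Individual GF members had the following levels after PBS and after vancomycin. Cd4 lay between 0.323 and 193 CPM (median 3.18) and between 0.396 and 42.4 CPM (median 2.37; log2 -0.82 ± 0.72). Cd8a had medians of 1.83 and 1.12 CPM (-0.26 ± 0.47) and Cd247 of 2.15 and 1.56 CPM (-0.53 ± 0.38). Lck had 6.28 and 3.76 CPM (-0.70 ± 0.48), Il7r 1.97 and 1.75 CPM, and Foxp3 0.757 and 0.256 CPM (-0.55 ± 0.53). All of these pairs overlapped over most of their range. Nkg7 had 0.685 and 0.792 CPM (0.39 ± 0.33), Ccl5 1.33 and 1.23 CPM (0.48 ± 0.35), Ncr1 0.458 and 0.357 CPM (-0.06 ± 0.36) and Itgae 3.85 and 3.76 CPM. Gzma and Gzmb were each listed at 0 in 7 of 16 PBS and 3 of 16 vancomycin libraries and reached at most 0.987 and 0.460 CPM. Prf1 had the lowest cytotoxic value, and Eomes, a regulator of NK and memory T cells, the lowest NK value (-0.45 ± 0.23).

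The sign of the GF median alternated between times of day. At ZT5, 28 of 32 members were above 0 (51.2% of all genes; median 0.66), at ZT11 5 of 32 (49.5%; -0.62), at ZT17 29 of 32 (53.7%; 0.83) and at ZT23 1 of 32 (49.6%; -2.42). No member was called at any of these times in edgeR (0% of all genes at each), and DESeq2 called none at ZT5, ZT11 and ZT17, where 3, 2 and 1 members had an unadjusted p under 0.05 in edgeR (3.58%, 4.91% and 4.47% of all genes). At ZT5 Nkg7 read 0.687, 0.0740, 0.289 and 0.259 CPM after PBS and 0.792, 0.496, 2.04 and 2.19 CPM after vancomycin (2.03 ± 0.69). Without PBS ZT5 replicate 1 the ZT5 median was 1.95. The summed level of Y-linked genes at ZT5 was 182 to 240 CPM after PBS and 30 to 154 CPM after vancomycin, without overlap. Its part in the ZT5 values was not tested. At ZT11 Cd3d read 8.26, 5.88, 0.136 and 9.61 CPM after PBS and 0.202, 0.998, 1.42 and 0.705 CPM after vancomycin (-2.84 ± 1.32), so that PBS replicate 3 was the 1 library that broke the separation. The ZT11 median was -0.31 without PBS ZT11 replicate 1 (12 of 32 above 0) and -1.04 without vancomycin ZT11 replicate 3 (1 of 32). At ZT17 Ccl5 read 0.393, 0.161, 1.40 and 0.652 CPM after PBS and 7.23, 1.03, 2.47 and 1.41 CPM after vancomycin (2.22 ± 0.73). The ZT17 median rested on vancomycin ZT17 replicate 1: without it, it was -0.55 with 7 of 31 above 0, and without PBS ZT17 replicate 3 it was 1.76.

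At GF ZT23 the T cell genes were low after vancomycin beside high PBS libraries, though no member passed the adjusted test in edgeR (adjusted p from 0.309 to 0.632). At an unadjusted p under 0.05 stood 26 of 32 (12.1% of all genes), the vancomycin libraries lay below PBS without overlap for 17 (4.79% of all genes), and DESeq2 called Lck and Tcf7 (0.324% of all genes). Cd3d read 9.33, 15.1, 51.1 and 10.8 CPM after PBS and 0.329, 5.78, 0.460 and 2.25 CPM after vancomycin (log2 -3.28 ± 1.30). Cd3e read 3.95, 6.97, 34.7 and 4.94 CPM against 0.988, 3.07, 0.690 and 1.09 CPM (-3.10 ± 1.07), and Trac 2.45, 10.2, 38.9 and 5.24 CPM against 0.576, 2.20, 1.23 and 1.09 CPM (-3.46 ± 1.37). Lck read 6.88, 19.3, 72.6 and 10 CPM against 1.48, 2.49, 5.14 and 1.16 CPM (-3.40 ± 1.04). For each of these 4 genes the lowest PBS library was above the highest vancomycin library, and PBS replicate 3 was the highest. Without that library the median was -1.44 and 6 of 31 had an unadjusted p under 0.05.

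Roles differed in size at GF ZT23. Medians were -3.28 for the receptor complex, -3.12 for signalling and surface genes, -2.53 for coreceptors, -2.01 for helper and regulatory genes, -1.66 for cytotoxic genes, -1.46 for NK genes and -1.12 for residency genes, and these differences between roles were not tested. Tcf7, a transcription factor of naive and memory T cells, read 6.41, 15.6, 74.3 and 8.69 CPM after PBS and 2.72, 3.81, 4.45 and 2.09 CPM after vancomycin (-3.0 ± 0.83, the smallest p of the members). Ncr1 read 0.395, 1.11, 0.730 and 0.899 CPM against 0.247, 0.220, 0.384 and 0.310 CPM (-1.41 ± 0.71), and Itgae 5.93, 9.19, 10.9 and 6.14 CPM against 2.80, 4.83, 3.68 and 1.78 CPM (-1.29 ± 0.58). The treatments did not overlap for Tcf7, Ncr1 or Itgae. Gata3 was the member above 0, with 0.712, 1.11, 2.52 and 1.27 CPM against 8.89, 7.68, 0.460 and 8.92 CPM (2.20 ± 1.16). Over GF libraries Gata3 followed Cd3e little (Spearman rho 0.36, described below), and which cells made it was not tested.

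B cell genes were low in the same libraries. All 13 B cell and follicle genes had an unadjusted p under 0.05 (12.1% of all genes; median -4.35), and their summed level was 344 to 1940 CPM after PBS and 10.4 to 81.1 CPM after vancomycin. Macrophage and dendritic cell genes had a median of -1.15 (summed 338 to 712 CPM after PBS and 75.7 to 240 CPM after vancomycin), smooth muscle genes 0.83 and proximal colon Hox genes 4.13. The summed Y-linked level was 69.2 to 253 CPM after PBS (median 242) and 17 to 269 CPM after vancomycin (median 43.2). With covariates that were added for this time after the data were seen, the T and NK cell median was -0.07 for the B cell score (0 of 32 at an unadjusted p under 0.05), -1.09 for smooth muscle (4), -1.87 for colon position (8) and -2.36 for Y-linked genes (17). The B cell score did not overlap between the treatments at this time (4.10 to 6.79 after PBS and -0.64 to 2.37 after vancomycin). The fit with that score therefore cannot separate tissue makeup from treatment. The part of tissue makeup in the ZT23 values was not tested.

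Dependence of the GF difference on time of day was tested as well. No member passed in edgeR (0% of all genes) or DESeq2, and 17 had an unadjusted p under 0.05 (8.29% of all genes), with the smallest for Ccl5 and Nkg7 (smallest edgeR adjusted p = 0.597). Without PBS ZT23 replicate 3 this count was 3.

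The vancomycin difference was higher in SPF than in GF mice for all 32 members tested in both, without passing the adjusted test. Members vary together between libraries, so these 32 signs are not independent results. The share of all genes above 0 was not computed for this difference. In a joint fit of the 64 libraries, in which SPF and GF levels enter only as differences within a table, no member and no gene was called in edgeR (0% of 16604), 16 of 32 members had an unadjusted p under 0.05 (9.94% of all genes), and DESeq2 called Cd3d (0.0964% of all genes). The median difference was 1.37 on the log2 scale. Cd3d had 3.00 ± 0.79 (edgeR adjusted p = 0.229; DESeq2 3.03, adjusted p = 0.0419), from 1.92 in SPF and -1.09 in GF mice. Il7r had 1.99 ± 0.65 (edgeR adjusted p = 0.371) and Lck 1.85 ± 0.66 (adjusted p = 0.413). Smallest were Cxcr6 (0.03 ± 0.42), Thy1 (0.16 ± 0.29) and Itgae (0.19 ± 0.36). With the B cell score as a covariate 23 of 32 were above 0 with a median of 0.37, and with colon position 31 with a median of 1.01. The GF treatments also differed in the Y-linked score (medians 5.78 after PBS and 1.40 after vancomycin). That score was not a covariate of the joint fit, and its part in the SPF minus GF difference was not tested. Without SPF vancomycin ZT11 replicate 2 the count at an unadjusted p under 0.05 was 6, without GF PBS ZT23 replicate 3 it was 7, and without SPF PBS ZT23 replicate 4 it was 22.

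Time of day within a treatment was tested for each member. After PBS in SPF mice no member passed in edgeR (8.9% of all genes did), although 3 had an unadjusted p under 0.05 (25.7% of all genes). Nkg7 was nearest (edgeR adjusted p = 0.0685), with group medians of 0.453, 0.297, 1.12 and 1.61 CPM at ZT5, ZT11, ZT17 and ZT23, and DESeq2 called it (15.6% of all genes). Tissue makeup also differed by hour in SPF mice. All 7 smooth muscle genes had an unadjusted p under 0.05 after each treatment (25.7% and 24.1% of all genes). Their summed medians after PBS were 12200, 16400, 11000 and 6410 CPM at the same times, and their part in these values was not tested. Without PBS ZT11 replicate 2 edgeR called Nkg7 and Trbc1 (11.5% of all genes). After vancomycin in SPF mice no member passed in edgeR or DESeq2 or had an unadjusted p under 0.05 (8.2% and 24.1% of all genes). After PBS in GF mice no member passed in edgeR (0.142% of all genes), 16 had an unadjusted p under 0.05 (14.7%), and DESeq2 called Tcf7 and Nkg7 (2.34% of all genes). Nkg7 had medians of 0.274, 0.901, 0.443 and 2.05 CPM there, highest at ZT23 as in SPF mice, and without PBS ZT23 replicate 3 the count of 16 was 1. After vancomycin in GF mice no member passed in edgeR or DESeq2 or had an unadjusted p under 0.05 (0.142% and 9.51% of all genes).

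Most members varied together from library to library. As deviations of log2 CPM from the group mean over 32 libraries, given as a description since the genes share library and depth, the Spearman rho of the other members with Cd3e had a median of 0.86 in SPF mice (34 genes, 0.14 to 0.96) and 0.80 in GF mice (31 genes, 0.08 to 0.92). Nearest in SPF mice were Trbc2 and the helper cell costimulator Icos (0.96 each) and Cd2, an adhesion receptor (0.95). In GF mice they were Il2rb, the interleukin 2 receptor chain of T and NK cells, and Ccl5 (0.92 each) and Cd2 (0.91). Farthest were Gzmb (0.14) and Gzma (0.41) in SPF mice, and Thy1 (0.08) and Gata3 (0.36) in GF mice. The highest library exceeded the lowest 90.1-fold for Cd3d in SPF and 376-fold in GF mice, and 3.15-fold and 7.59-fold for Thy1.

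Genes of other cell types followed Cd3e too. Relations were computed over libraries in both tables, 12 in all (permutation within groups, two-sided, 100000 resamples, n = 32 libraries each), with p-values adjusted over the 12. Csf1r, a macrophage receptor, gave Pearson r = 0.85 and Spearman rho = 0.88 with Cd3e in SPF mice (permutation p = 1e-05 for both, the smallest these resamples can give, adjusted p = 6e-05 for both; r = 0.86 without the 2 libraries farthest from the median) and r = 0.70 and rho = 0.70 in GF mice (permutation p = 0.00012 and 0.00022, adjusted p = 0.00036 and 0.00066; r = 0.65 without 2). Ncr1 gave r = 0.67 and rho = 0.66 in SPF mice (permutation p = 0.00043 and 0.00035, adjusted p = 0.00086 and 0.0007; r = 0.62 without 2) and 0.67 for both in GF mice (permutation p = 0.0006 and 0.00097, adjusted p = 0.00103 and 0.00166; r = 0.61 without 2). T cell signal thus went with macrophage and NK signal in the same libraries.

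**Figure D4:**
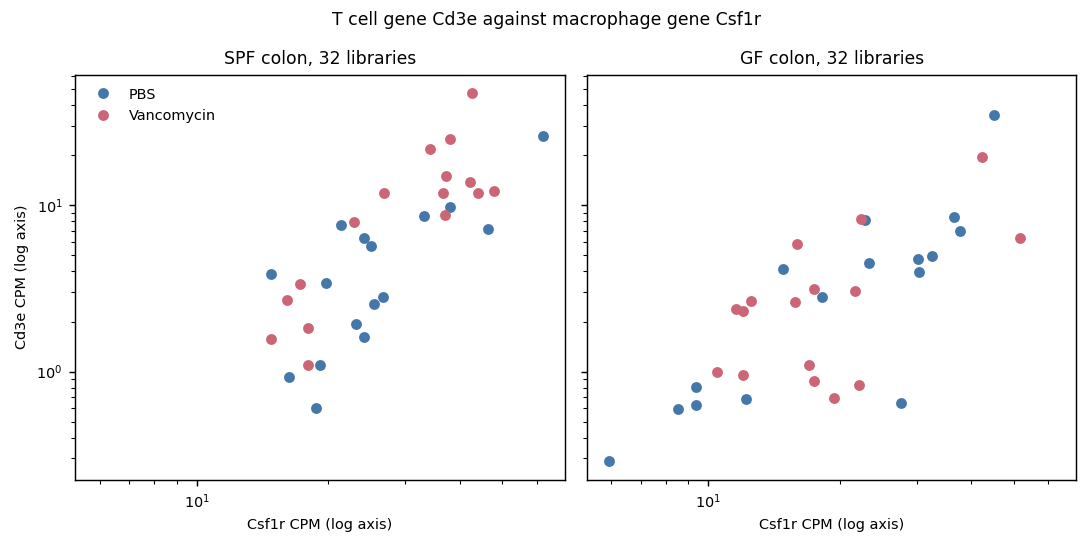
Cd3e against the macrophage gene Csf1r in every library (both in CPM on log axes), in separate panels for SPF and GF mice and coloured by treatment. Libraries rich in Csf1r tend to be rich in Cd3e in both panels, with Csf1r from 14.8 to 61.9 CPM in SPF and from 5.93 to 51.6 CPM in GF libraries.

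Epithelial and muscle genes correlated negatively or weakly with Cd3e. Epcam, an epithelial adhesion protein, gave r = -0.68 and rho = -0.70 with Cd3e in SPF mice (permutation p = 0.00016 and 0.0003, adjusted p = 0.000384 and 0.0007; r = -0.65 without 2), and r = -0.16 and rho = -0.16 in GF mice (permutation p = 0.447 and 0.43, adjusted likewise 0.447 and 0.43; r = -0.28 without 2). Smooth muscle myosin Myh11 gave r = -0.44 and rho = -0.38 in SPF mice (permutation p = 0.0418 and 0.0686, adjusted p = 0.0502 and 0.0823; r = -0.37 without 2) and r = -0.54 and rho = -0.51 in GF mice (permutation p = 0.00656 and 0.009, adjusted p = 0.00984 and 0.0135; r = -0.43 without 2). Cxcl9, a chemokine ligand for T cells, gave r = 0.49 and rho = 0.38 in SPF mice (permutation p = 0.0835 and 0.11, adjusted p = 0.0911 and 0.12; r = 0.25 without 2) and 0.48 for both in GF mice (permutation p = 0.0163 and 0.0168, adjusted p = 0.0217 and 0.0223; r = 0.43 without 2).

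Further genes of the T cell pathway leaned the same way. Of 42 tested in SPF mice over all times, 41 were above 0 (48.8% of all genes) with a median of 0.56. At an unadjusted p under 0.05 stood 14 (16.2% of all genes), and edgeR called none (0.809%). The smallest p belonged to Fyb, an adaptor that links the receptor to integrins (0.31 ± 0.08, edgeR adjusted p = 0.065; 37.3 ± 11.3 to 45.8 ± 12.0 CPM, SD, n = 16 each), Cd226, an activating receptor of T and NK cells (1.48 ± 0.44, adjusted p = 0.101), and Ubash3a, a brake on receptor signalling (1.06 ± 0.40, adjusted p = 0.202). In GF mice 15 of 43 were above 0 (52.2% of all genes) with a median of -0.23 and none at an unadjusted p under 0.05 (3.96%), led by Lef1, a partner of Tcf7 (-0.85 ± 0.42) and Cd226 (-0.78 ± 0.42). At GF ZT23, 28 of 43 had an unadjusted p under 0.05 (12.1% of all genes; median -1.67). Fyb changed with time of day in SPF mice, after PBS (edgeR adjusted p = 0.00195) and after vancomycin (adjusted p = 0.00507). Its group medians after PBS were 29.1, 28.1, 39.8 and 54.2 CPM at ZT5, ZT11, ZT17 and ZT23. Smooth muscle genes differed between these times too, as given above, and their part in the Fyb values was not tested. For time of day edgeR called 8.9% of all genes after PBS and 8.2% after vancomycin. Of the 42, only 2 and 4 had an unadjusted p under 0.05 there (25.7% and 24.1% of all genes).

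Chemokines that draw T cells were tested beside the members. Of 8 tested in SPF mice over all times, 2 were called higher (0.378% of all genes were, and 0.431% lower). They were Cxcl9 (2.41 ± 0.45, edgeR adjusted p = 0.0154; 1.01 ± 0.902 to 6.38 ± 7.05 CPM, SD, n = 16 each) and Cxcl11 (2.33 ± 0.52, adjusted p = 0.0337), both ligands of the receptor CXCR3. Their sister ligand Cxcl10 had 1.66 ± 0.44 (adjusted p = 0.0668). The SD of Cxcl9 after vancomycin exceeded its mean, and whether these 2 calls hold with a library left out was not examined. In GF mice Cxcl9 had -0.34 ± 0.47. Beside the SPF values over all times, 13 of 13 B cell and follicle genes (median 0.63) and 14 of 14 macrophage and dendritic cell genes (median 0.26) were above 0 (48.8% of all genes). Epithelial and smooth muscle genes had medians of -0.13 and -0.07. Of these 4 lists Krt18 alone passed, and it fell by 0.48 on the log2 scale.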

How the data were processed

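Whole colon RNA (1000 ng, poly(A) selected, single-end reads) was measured in 64 libraries, per the labels' protocols. Per the submitters' processing notes, reads were handled with Trim Galore 0.6.2, cutadapt 3.5, Salmon and build GRCm39. The deposited values are estimated counts per gene, 1 table for SPF and 1 for GF mice. The authors' file names call them normalized; how, and whether strand was used: not given in the sources used here. Library totals differ and values under 20 are mostly not whole (4.24 to 12.9% within 0.01 of a whole number in SPF and 3.47 to 15.1% in GF libraries), as estimated counts are, so they were tested as counts. No 2 libraries were identical.

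Estimated counts were rounded to whole numbers. In each table, 49 entries had no symbol, and they entered the filter on counts like the rest. Genes with at least 10 counts in at least 4 libraries were kept, scaled by TMM and fitted with 8 group means in edgeR 4.0.16 (R 4.3.3, quasi-likelihood, two-sided, Benjamini-Hochberg over all genes tested). SE is the log2 fold change divided by the root of F. Log2 CPM used a prior count of 2. The fit was tested on simulated data first. Alternatives were DESeq2 1.42.0, RLE scaling, no filter, a filter in 16 libraries, a replicate block, score covariates and leaving out each library. Sequencing depth limits genes under 1 CPM, about 10 to 16 counts per library.

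The members and gene lists were chosen with earlier results of these data known. Per-library values are given for 15 set members and for any called member, beside the highest and lowest log2 fold change of each role over all times and, of the other T cell pathway genes, the called ones and the 3 with the smallest p. Gata3 at ZT23, Tcf7, Thy1, Cd5 and Il2rb levels and time-of-day medians were picked after their values were seen. Results for some genes outside the member list are not reported here.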

Additional observations from a re-analysis of the deposited data

Results flagged for a closer look

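A library far from the other 3 of its group was found in 27 of 224 combinations of a gene and a group (Dixon's gap test on log2 CPM). Chance alone marks about 1 in 20 such combinations, and the members vary together, so the 27 are not independent. They involve 14 libraries and no explanation was tested.

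In SPF mice, PBS ZT11 replicate 2 was high for Lck (21 CPM, the others 2.84 to 3.63), Cd4 (40.3 CPM), Cd3d (2.54 CPM, the others 0.506 to 0.602), Cd8a (5.32 CPM) and Trac (11.6 CPM, the others 0.43 to 0.759). Vancomycin ZT23 replicate 3 was low for Lck (4.99 CPM, the others 27.8 to 32.2), Cd3d (4.99 CPM), Cd3e (3.38 CPM), Cd247 (2.87 CPM) and Trac (3.97 CPM). PBS ZT17 replicate 1 was low for Lck (6.41 CPM) and Cd8a (1.67 CPM), and replicate 2 for Cd3d (1.54 CPM). PBS ZT17 replicate 4 was high for both granzymes, Gzma (2.57 CPM, the others 0.154 to 0.264) and Gzmb (2.26 CPM, the others 0.308 to 0.439), but not for Cd3d or Cd3e. Nkg7 was high in vancomycin ZT23 replicate 1 (2.39 CPM), and Ncr1 low in vancomycin ZT5 replicate 4 (0.281 CPM).

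In GF mice, vancomycin ZT17 replicate 1 was high for Il7r (14.3 CPM, the others 1.28 to 1.74) and Cd247 (8.32 CPM), and PBS ZT17 replicate 3 for Trac (10.4 CPM, the others 0.0807 to 0.245) and Cd247 (5.59 CPM). PBS ZT11 replicate 3 was low for Cd3d (0.136 CPM, the others 5.88 to 9.61) and Foxp3 (0.0682 CPM). Cd247 was high in vancomycin ZT5 replicate 3 (5.33 CPM), Ccl5 in PBS ZT5 replicate 1 (1.81 CPM) and vancomycin ZT23 replicate 2 (1.32 CPM), and Foxp3 low in PBS ZT23 replicate 1 (0.316 CPM).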

How the results depend on the processing

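Counts of called members changed as follows. DESeq2 called 1 member at SPF ZT11 (Cd3d), 1 for SPF time of day after PBS (Nkg7), 2 at GF ZT23 (Lck, Tcf7), 2 for GF time of day after PBS (Tcf7, Nkg7) and 1 for the SPF minus GF difference (Cd3d), where edgeR called 0. The 1 SPF member called over all times became 0 with no filter on low counts and with the B cell, colon position or smooth muscle covariate. Leaving out 1 library gave 0 to 2 called members for SPF over all times, 0 to 2 at SPF ZT11 and 0 to 2 for SPF time of day after PBS. With group means kept, the correlation of Cd3e in SPF libraries was -0.58 with Myh11 and 0.42 with Cxcl9 (adjusted permutation p = 0.00101 and 0.0221), and with Epcam it went from -0.68 to -0.39 (adjusted permutation p = 0.0311). The causes were not tested. No called value changed sign.

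Over all genes, SPF calls over all times were 137 in edgeR, 481 in DESeq2, 80 with no filter, 83 with the B cell and 76 with the colon position covariate, and 47 to 518 with 1 library left out. DESeq2 called 244 genes at SPF ZT5 where edgeR called 14, 94 against 0 at ZT11 and 147 against 54 at ZT17.

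Replicate numbers occur in every group, and the deviations of same-numbered libraries correlated with r from -0.48 to 0.49. The highest was 0.49 for SPF ZT11 replicate 2, and r was not over 0.1 for every pair, so the numbers were not taken to pair the libraries. With the replicate block, edgeR called 1 member for SPF time of day after PBS (Nkg7) in place of 0, and no other count of called members changed.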
